A study of Homo sapiens with 20 samples.

Results

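Replication licensing genes were followed in lung cancer cells after decitabine (DAC). They are 10 genes named by symbol, namely the helicase subunits MCM2 to MCM7, the loading factors CDC6 and CDT1, and the activation factors MCM10 and CDC45. All 10 were rows of the mRNA-seq table of 36076 genes, and all 10 were among the 22603 genes tested. Human lung cancer lines were compared, 6 in all (A549, PC9, H1792, H1299, CL1-0 and its subline CL1-5), each with 1 Mock library, labelled as PBS-treated, and 1 DAC library. DAC is a cytidine analog that traps and depletes DNA methyltransferases, and it was given at 100 nM for 3 days before 3 days in medium without the drug. Omni-ATAC-seq, which cuts accessible DNA with a transposase, was available for Mock and DAC cells of 4 lines, 8 libraries in all. CL1-5 was selected from CL1-0 for invasiveness, so these 2 lines are not independent tumours, and a line of cultured cancer cells is a model of one tumour only.

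Replication licensing is the loading of the MCM2 to MCM7 helicase onto DNA in G1, before any DNA is copied. The origin recognition complex (ORC) binds DNA and, with CDC6 and CDT1, closes a pair of MCM2-7 rings around it. Geminin (GMNN) holds CDT1 back once S phase has begun, so that no origin is licensed again. In S phase, CDC45 and the GINS complex join the ring to form the active helicase, and MCM10 is needed for that ring to open the DNA. Transcription of most of these genes is driven by E2F factors as cells leave G0 or G1, and their mRNA is therefore widely used as a sign of cycling cells.

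E2F binding words were looked for in the promoters of these genes, because they are the sequences the family is known to share. RefSeq promoters of 300 bases (GRCh38.p14, 250 bases before to 50 after the start of the gene) were at hand for 8 of the 10 genes. MCM4 and MCM5 had no entry. The words were TTTCGCGC, TTTGGCGC, TTTCCCGC and TTTGCCGC, which spell out the E2F consensus, on both strands, with overlapping matches counted. They were present in 6 of the 8 genes, against 3.31% of all 35116 promoters and 5.24% of the 8208 promoters of genes that averaged 5 FPKM or more. The related word TTTGGCGG, which was added after these promoters had been read, was in 4 of the 8 genes and in 0.652% of all promoters. With either kind, 8 of 8 genes held a match, in 8 of their 12 entries. The share was 3.92% of all promoters and 6.18% of those of genes that averaged 5 FPKM or more. Since the added word was picked from these same promoters, the counts that include it are no support. A gene was counted if any of its entries held a match, while the shares are per promoter. The matches are a description of the sequence and no evidence that a factor was bound.
The sequences below are printed 5′ to 3′ on the strand of the gene, with matches to these words on either strand in capitals. The promoters of MCM2 (chr3:127598161-127598460, plus strand) and MCM6 (chr2:135876394-135876693, minus strand) are shown whole, since both hold overlapping words on both strands, once in MCM2 and at 2 places in MCM6. In MCM2 the word is TTTCGCGC on both strands. In MCM6 it is TTTGGCGC on the gene strand and TTTCGCGC on the other. For the others, 48 bases around a match are shown.
MCM2: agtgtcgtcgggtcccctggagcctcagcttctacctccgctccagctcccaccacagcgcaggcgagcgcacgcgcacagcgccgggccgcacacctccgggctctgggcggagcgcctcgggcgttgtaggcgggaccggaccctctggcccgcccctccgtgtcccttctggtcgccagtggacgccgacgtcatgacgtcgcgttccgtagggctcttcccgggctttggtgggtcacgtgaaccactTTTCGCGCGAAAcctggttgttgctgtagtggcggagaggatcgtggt
MCM6: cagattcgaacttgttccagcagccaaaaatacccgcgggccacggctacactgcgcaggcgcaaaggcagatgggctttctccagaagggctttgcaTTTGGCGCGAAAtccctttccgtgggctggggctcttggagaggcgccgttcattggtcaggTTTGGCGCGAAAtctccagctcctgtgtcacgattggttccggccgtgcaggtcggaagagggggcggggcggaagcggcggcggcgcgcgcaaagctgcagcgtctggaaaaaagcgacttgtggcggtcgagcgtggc
MCM3, chr6:52284719-52284766, minus strand: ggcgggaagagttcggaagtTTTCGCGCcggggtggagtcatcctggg
MCM7, chr7:100101379-100101426, minus strand: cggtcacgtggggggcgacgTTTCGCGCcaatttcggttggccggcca
CDC6, chr17:40287866-40287913, plus strand: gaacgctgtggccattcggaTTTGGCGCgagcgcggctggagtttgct
CDT1, chr16:88803734-88803781, plus strand: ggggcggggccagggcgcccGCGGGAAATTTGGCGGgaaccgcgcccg
MCM10, chr10:13161543-13161590, plus strand: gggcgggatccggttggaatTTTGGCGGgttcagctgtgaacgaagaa
CDC45, chr22:19479875-19479922, plus strand: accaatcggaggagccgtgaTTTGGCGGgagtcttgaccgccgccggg
The match shown lay 2 bases past the RefSeq gene start in MCM2, 4 bases before it in MCM3 and 9 before it in MCM7. It lay 7 past the start in CDC6, 5 past it in MCM10 and 25 before it in CDC45. The MCM6 matches began 152 and 90 bases before the start. Further matches, not shown, lay 174 bases before the start in MCM3, 187 before it in MCM7 and 28 before it in CDC6. In CDT1 the opposite-strand word 35 bases before the start ran directly into the added word 27 bases before it.

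Depth was similar in 5 of the lines, with 22234485 to 25303899 reads on genes per library. H1299 had more, at 59735913 reads in Mock and 52634234 after DAC. Of its low read numbers (1 to 20), 85.5% and 81.9% were even, against 39.2% to 41.5% in the other libraries. Its reads were therefore divided by 2 before counting intervals were computed, and the higher number need not mean more depth. Values are FPKM, fragments scaled by transcript length and a factor per library, which can be set side by side between genes. That factor is not the read total alone. In A549 the totals were 24686736 reads in Mock and 24720109 after DAC. MCM2 was at 33.9 FPKM from 3562 reads in that Mock library and at 24.3 FPKM from 3013 reads after DAC. Differences are given as log2(FPKM + 0.1) in DAC minus Mock. Between 247 reads (MCM10 in H1792 after DAC) and 43803 reads (MCM7 in H1299 after DAC) stood behind a value, and the 95% counting interval of a single difference reached 0.029 to 0.21 to either side on the log2 scale. It covers counting error only, since each line had 1 library per treatment. Leukocyte transcripts were near 0, with a summed level of 0.133 to 7.50 FPKM that came mainly from CD14 in A549. Of the 5 epithelial markers, 5 reached 1 FPKM in A549, PC9 and H1792, but 2 in Mock CL1-5 and Mock H1299, and 0 in Mock CL1-0, which has a summed epithelial level of 0.986 FPKM. After DAC 4 reached it in CL1-5 and H1299 and 1 in CL1-0. The summed epithelial level in H1299 was 111 FPKM in Mock and 669 FPKM after DAC. Of the mesenchymal markers, VIM ranged from 4.77 to 481 FPKM, CDH2 from 0.650 to 165 FPKM and FN1 from 1.22 to 97.7 FPKM. The endothelial marker CDH5 was at most 1.2001 FPKM, and of the erythroid markers HBB was at most 0.0396 FPKM and HBA1 at most 5.42 FPKM, in the DAC library of CL1-5.

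The direction of the licensing genes after DAC depended on the line. In A549, PC9 and H1792 all 10 genes were lower in the DAC library, and in CL1-0 9 of 10 were lower. In CL1-5 and H1299 all 10 were higher. The median difference was -0.59 in A549, -0.52 in PC9, -0.85 in H1792 and -0.32 in CL1-0, and it was 0.41 in CL1-5 and 0.45 in H1299. These are differences between single libraries with no test. The background share of genes that were lower, over all genes tested, was 42.2% in A549, 42.9% in PC9, 41.4% in H1792 and 43.8% in CL1-0, and the share that were higher was 49.2% in CL1-5 and 43.4% in H1299. Among the 7461 genes that averaged 5 FPKM or more over the 12 libraries, called well expressed here, the corresponding shares lower were 61.8%, 57%, 47.3% and 65.2%, and the shares higher were 58.2% and 54.5%. The counting interval excluded 0 for 57 of the 60 single differences, and the exceptions were MCM10 in A549, MCM3 in CL1-0 and MCM5 in H1299. The share over all genes was not computed. The interval also leaves out the choice of scale, since rescaling libraries to a common sum moved every gene in A549 by 0.35. MCM4 and CDC45 in CL1-0, both among the 57, took the opposite sign with it.

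**Figure D1:**
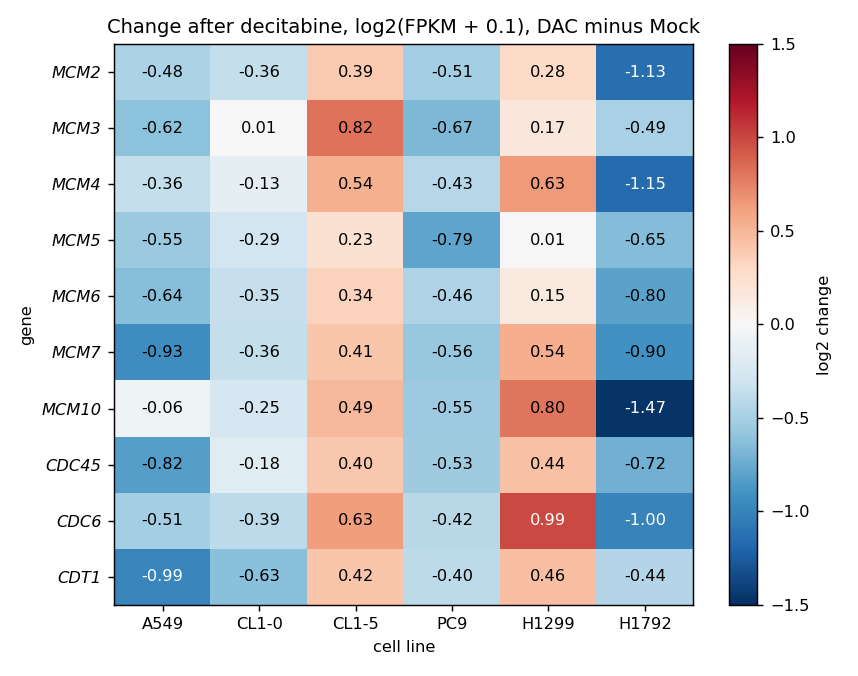
Log2 difference in FPKM + 0.1 between the DAC and the Mock library of each cell line (columns) for the 10 licensing and helicase genes (rows), with 1 library per line and treatment and the value printed in each cell. A549, PC9 and H1792 are lower throughout, CL1-5 and H1299 higher throughout, and CL1-0 is lower apart from MCM3 at 0.01; with other scalings MCM10 in A549, MCM4 and CDC45 in CL1-0 and MCM5 in H1299 took the opposite sign.

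A difference past 1.5-fold was called within a line. In A549, 5 genes were past it and lower (MCM3, MCM6, MCM7, CDC45 and CDT1), where 17.1% of all genes tested and 25.5% of the well expressed genes were. In CL1-0 only CDT1 was (6.26% and 3.99%), and in PC9 MCM3 and MCM5 were (8.04% and 4.99%). In H1792 8 genes were past it and lower, all but MCM3 and CDT1, against 14.3% and 11.8%. In CL1-5 2 genes, MCM3 and CDC6, were past it and higher, against 13.7% and 7.89% in that direction. In H1299 3 genes, MCM4, MCM10 and CDC6, were past it and higher, against 15.7% and 14.7%.

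Ranked among the 7461 well expressed genes of the same line, the 10 genes had a median percentile of 4.98 in H1792, 7.34 in PC9, 22.9 in CL1-0 and 25.6 in A549, where 0 is the lowest difference. The median percentile was 86.2 in CL1-5 and 79.2 in H1299. The lowest single rank was that of MCM10 in H1792, at the 0.523 percentile, and the highest that of MCM3 in CL1-5, at 95.1. In PC9 the 10 genes kept close together, between -0.79 and -0.40, with an SD over genes of 0.12. They were most spread in H1792, between -1.47 and -0.44 (SD 0.32 over genes), and in H1299, between 0.01 and 0.99 (SD 0.31).

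**Figure D2:**
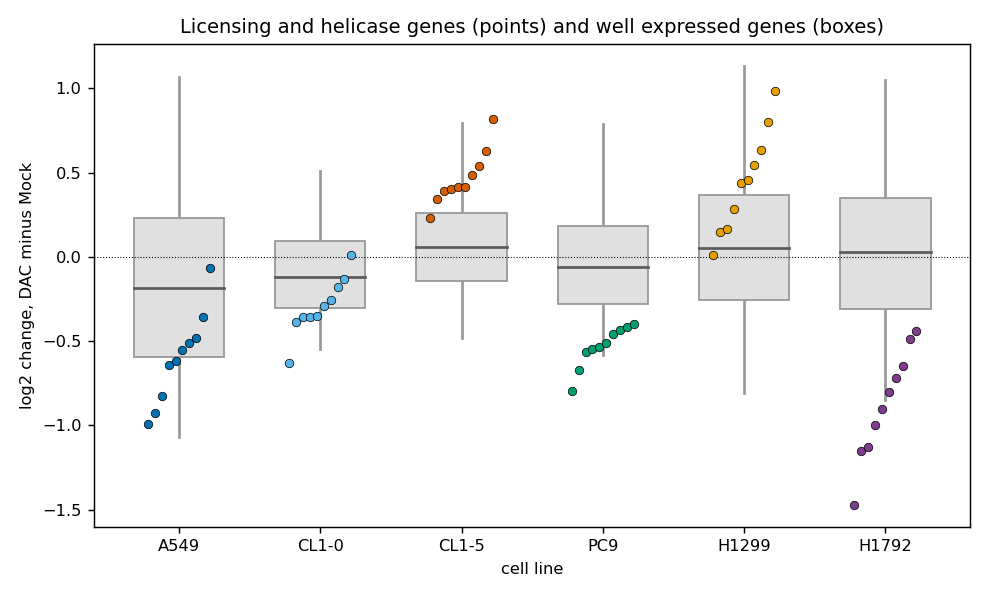
Log2 difference, DAC minus Mock, of the 10 licensing and helicase genes (points, ordered by value within each line) and of 7461 well expressed genes, averaging 5 FPKM or more (box, 25th to 75th percentile with the median as a line; grey line, 5th to 95th percentile), 1 library per line and treatment. The points lie below the box in PC9 and H1792, from below it to just above its median in A549 and CL1-0, and above or in its upper part in CL1-5 and H1299, apart from MCM5 in H1299, at 0.01, just under the median.

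The FPKM of a library sum to different totals, so the scale was examined. Rescaling every library to a common sum moved every gene by 0.35 in A549, 0.17 in PC9, -0.17 in H1792, 0.18 in CL1-0, -0.12 in CL1-5 and 0.04 in H1299 on the log2 scale. The median difference of the well expressed genes before rescaling was -0.18, -0.06, 0.03, -0.12, 0.06 and 0.05 in the same order. Relative to that median, the licensing genes stood at -0.40 in A549, -0.46 in PC9, -0.88 in H1792, -0.20 in CL1-0, 0.35 in CL1-5 and 0.39 in H1299. With the common sum the medians were -0.24, -0.35, -1.02, -0.14, 0.30 and 0.48, so that each line's median kept its sign. Single genes took the opposite sign, namely MCM10 in A549 and MCM4 and CDC45 in CL1-0. With the common sum 1 gene in place of 5 was past 1.5-fold in A549, 0 in place of 1 in CL1-0, 1 in place of 2 in PC9 and in CL1-5, and 10 in place of 8 in H1792, and in H1299 the number was 3 both ways. The shares of all genes past 1.5-fold were taken before rescaling only, so these numbers have no background beside them.

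Over the 5 lines without H1792, which are those the study compared, none of the 10 genes passed the test. limma with the line as a block called 27 of 22603 genes higher (0.119%) and 0 lower at an adjusted p under 0.05, and before adjustment 1825 genes (8.07%) were higher and 994 (4.4%) lower at a p under 0.05. Among the licensing genes 0 of 10 had a p under 0.05 before adjustment, and their adjusted p ranged from 0.4996 to 0.933. Below 0 lay 7 of them and above it 3, with a median of -0.14, where the median of all genes tested was 0.07. With H1792 added, all 10 lay below 0, with a median of -0.25, and again 0 of 10 passed, with adjusted p from 0.432 to 0.888, where 53 genes (0.232%) were called higher. The SD of the differences over the 6 lines was 0.40 to 0.80 for the 10 genes (median 0.58), and its median was 0.39 over the well expressed genes.

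The loading factors are taken first. CDT1 (chr16:88870197-88875666 in GRCh37, plus strand), which brings MCM2-7 to ORC and is destroyed in S phase, was at 23.2 FPKM in the Mock and 11.6 FPKM in the DAC library of A549, 17.1 and 13 for PC9, 19.7 and 14.5 for H1792, 39.2 and 25.3 for CL1-0, 16.6 and 22.2 for CL1-5 and 40.5 and 55.6 for H1299. CDT1 had the lowest DAC level relative to Mock of all 10 genes in A549, at -0.99, and in CL1-0, at -0.63, and the difference nearest 0 in PC9 and H1792. The mean over the 5 lines was -0.23 ± 0.23 (SE; 95% interval -0.77 to 0.31; adjusted p = 0.68). The H1299 DAC library held the highest CDT1 level, apart from all other DAC libraries, which did not exceed 25.3 FPKM. CDC6 (chr17:38444131-38460909, plus strand), the ATPase that ORC recruits before MCM2-7 is loaded, was at 22.5 FPKM in the Mock and 15.8 FPKM in the DAC library of A549, 26 and 19.4 for PC9, 11 and 5.45 for H1792, 24.5 and 18.7 for CL1-0, 18.2 and 28.1 for CL1-5 and 5.95 and 11.9 for H1299. CDC6 was lowest of all Mock libraries in H1299 and there had the largest positive difference of the 10 genes, 0.99, and in H1792 the difference was -1.0001. The mean over the 5 lines was 0.06 ± 0.25 (SE; 95% interval -0.52 to 0.64; adjusted p = 0.933). The Mock and DAC ranges of both loading factors overlapped across lines.

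Geminin, the inhibitor of CDT1, was at 20.7 FPKM in the Mock and 11.1 FPKM in the DAC library of A549, 29 and 21.1 for PC9, 11.1 and 7.62 for H1792, 32.9 and 28 for CL1-0, 24.9 and 36.7 for CL1-5 and 18.2 and 25.3 for H1299. It followed the direction of CDT1 in each line. The ratio of CDT1 to GMNN in FPKM was 1.12 in the Mock and 1.04 in the DAC library of A549, 0.591 and 0.616 for PC9, 1.77 and 1.902 for H1792, 1.19 and 0.906 for CL1-0, 0.668 and 0.605 for CL1-5, and 2.23 and 2.201 for H1299. The ratio thus differed more between lines than between treatments, and its log2 difference was between -0.39 in CL1-0 and 0.10 in H1792. GMNN did not pass the test over the 5 lines, at -0.11 ± 0.22 (SE, adjusted p = 0.851).

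The subunits of the helicase ring are present in equal numbers in the protein complex, but their mRNA levels were not equal. MCM7 was the most abundant of the 6 in 10 of 12 libraries, and MCM3 in both PC9 libraries. MCM5 was the least abundant in 8 of 12, with MCM4 and MCM6 the least in 2 each. The highest subunit exceeded the lowest by 2.81-fold in Mock CL1-5 and by 12.6-fold in H1299 after DAC. Summed over the 6 subunits the level was 329 FPKM in the Mock and 208 FPKM in the DAC library of A549, 284 and 189.8 for PC9, 137 and 75.6 for H1792, 351 and 291 for CL1-0, 219 and 311 for CL1-5, and 295 and 395 for H1299. CL1-5 and H1299 therefore held the highest sums among the DAC libraries, and CL1-0 and A549 among the Mock libraries. H1792 had the lowest sum of any line in both treatments. In bulk RNA, fewer cells that transcribe these genes and less of their RNA per cell cannot be told apart.

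**Figure D3:**
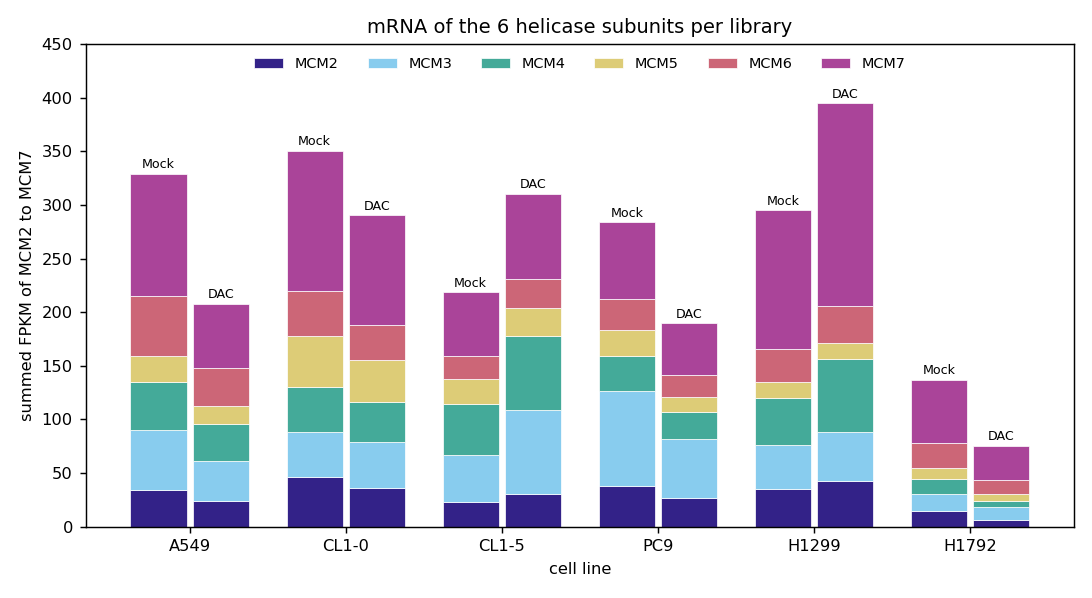
Summed FPKM of the 6 MCM2-7 subunits in each of the 12 libraries, stacked by subunit, with the Mock library on the left and the DAC library on the right for each line. The sums range from 75.6 FPKM in H1792 after DAC to 395 FPKM in H1299 after DAC, and MCM7 or MCM3 is the largest segment in each bar.

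MCM7 (chr7:99690351-99699020, minus strand), one of the subunits with the catalytic core activity of the ring, was at 114 FPKM in the Mock and 59.8 FPKM in the DAC library of A549, 71.1 and 48 for PC9, 59.5 and 31.7 for H1792, 131 and 102 for CL1-0, 59.6 and 79.3 for CL1-5 and 129.7 and 189 for H1299. It had the second lowest difference of the 10 genes in A549, -0.93, and its share of the 6-subunit sum went from 34.6% to 28.7% there. In H1299 its share went from 43.9% to 47.9%. The mean over the 5 lines was -0.18 ± 0.23 (SE; 95% interval -0.73 to 0.37; adjusted p = 0.752). MCM4, which forms the catalytic core with MCM6 and MCM7, was at 44.7 FPKM in the Mock and 34.8 FPKM in the DAC library of A549, 33.5 and 24.8 for PC9, 14.1 and 6.31 for H1792, 41.1 and 37.6 for CL1-0, 47.6 and 69 for CL1-5 and 43.8 and 68 for H1299. The CL1-5 and H1299 DAC libraries stood together at the top, at 69.02 and 67.99 FPKM, and no other library exceeded 47.6. MCM4 was above 0 on average over the 5 lines, at 0.05 ± 0.19 (SE; 95% interval -0.40 to 0.50; adjusted p = 0.926), and below 0 with H1792 added, at -0.15. MCM6 (chr2:136597196-136634013, minus strand), the third member of that core, was at 55.9 FPKM in the Mock and 35.8 FPKM in the DAC library of A549, 29.1 and 21.2 for PC9, 22.6 and 12.9 for H1792, 41.6 and 32.6 for CL1-0, 21.2 and 26.9 for CL1-5 and 30.8 and 34.1 for H1299. Its highest Mock level was in A549, where the DAC level was -0.64 on the log2 scale from it, and its mean over the 5 lines was -0.19 ± 0.17 (SE; 95% interval -0.58 to 0.20; adjusted p = 0.63).

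MCM2 (chr3:127317254-127341279, plus strand), a regulatory subunit phosphorylated by CDC7 kinase and a chaperone of histones at the fork, was at 33.9 FPKM in the Mock and 24.3 FPKM in the DAC library of A549, 38.3 and 26.9 for PC9, 14.5 and 6.59 for H1792, 46.1 and 36 for CL1-0, 23.1 and 30.4 for CL1-5 and 35.2 and 42.9 for H1299. Its difference was close to the median of the 10 genes in A549, CL1-0, CL1-5 and PC9, and lower than it in H1792, -1.13. The mean over the 5 lines was -0.13 ± 0.17 (SE; 95% interval -0.54 to 0.27; adjusted p = 0.748). MCM3 (chr6:52128813-52149540, minus strand), the subunit that joins MCM5 and MCM7 in the ring, was at 56.2 FPKM in the Mock and 36.7 FPKM in the DAC library of A549, 87.9 and 55.2 for PC9, 16 and 11.4 for H1792, 42.6 and 42.9 for CL1-0, 44.2 and 78 for CL1-5 and 40.7 and 45.7 for H1299. It had the largest positive difference of the 10 genes in CL1-5, 0.82, with a share of the 6-subunit sum of 20.2% in Mock and 25.1% after DAC. MCM3 was also the only one not lower in CL1-0, at 0.01, where its counting interval included 0. The mean over the 5 lines was -0.06 ± 0.23 (SE; 95% interval -0.59 to 0.47; adjusted p = 0.927). MCM5 (chr22:35796133-35821424, plus strand), which forms with MCM2 the gate through which DNA enters the ring, was at 24.5 FPKM in the Mock and 16.7 FPKM in the DAC library of A549, 23.9 and 13.8 for PC9, 10.4 and 6.63 for H1792, 48 and 39.2 for CL1-0, 22.9 and 26.9 for CL1-5 and 14.9 and 15 for H1299. It was the gene with the lowest average over the 5 lines, -0.28 ± 0.17 (SE; 95% interval -0.67 to 0.11; adjusted p = 0.50), and the interval included 0. MCM5 was the lowest of the 10 genes in PC9, -0.79, and the the nearest to 0 in both CL1-5 and H1299.

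**Figure D4:**
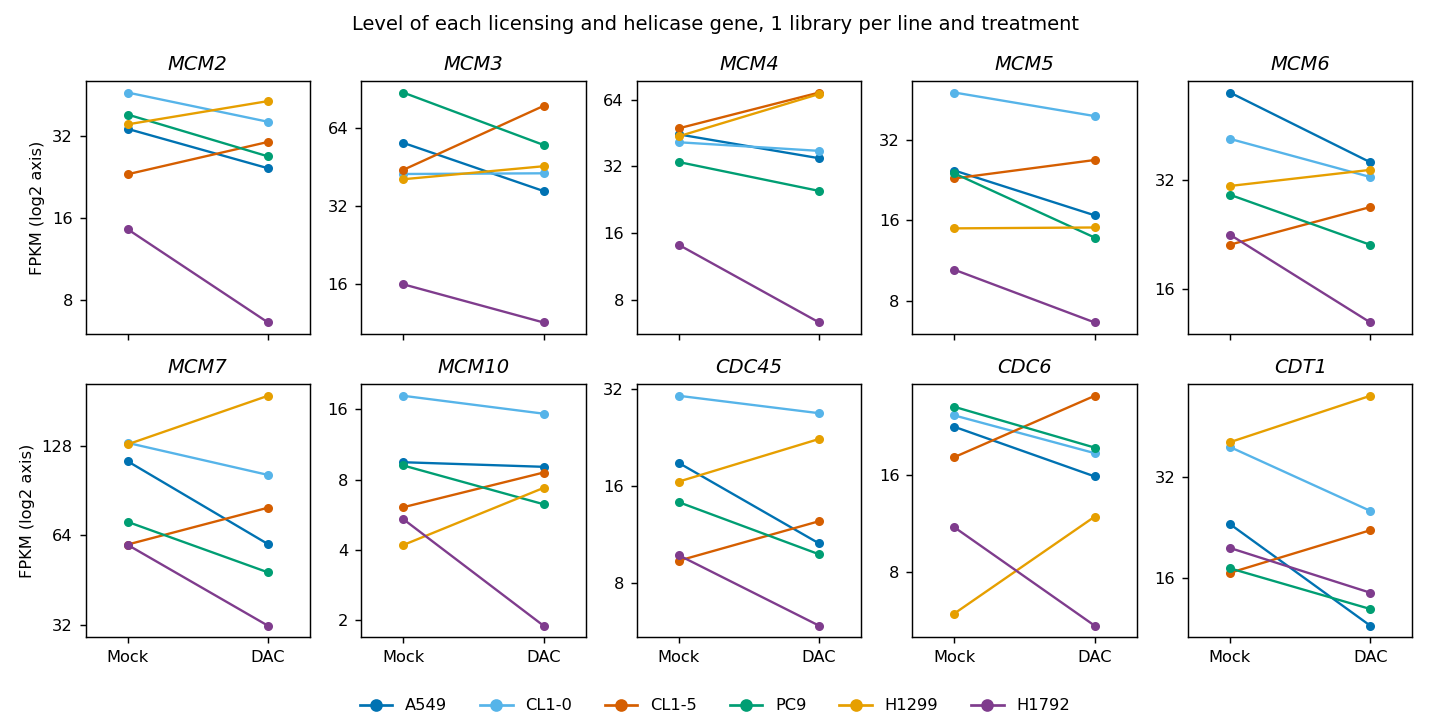
FPKM of each of the 10 genes (panels, log2 axis with its own range per gene) in the Mock and the DAC library of each of the 6 lines, joined by a line, with 1 library per point. Lines for CL1-5 and H1299 slope up or are flat, those for A549, PC9 and H1792 slope down, and H1792 is the lowest line after DAC for 9 of the 10 genes, all but CDT1.

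The activation factors had lower levels than the 6 ring subunits, apart from CDC45 in both H1299 libraries, where it was above MCM5. MCM10 (chr10:13203558-13253110, plus strand), which acts when the loaded helicase is switched on, was the lowest of the 10 genes in 12 of 12 libraries, at 9.49 FPKM in the Mock and 9.07 FPKM in the DAC library of A549, 9.19 and 6.27 for PC9, 5.41 and 1.89 for H1792, 18.3 and 15.3 for CL1-0, 6.08 and 8.57 for CL1-5 and 4.19 and 7.36 for H1299. Its differences spanned the widest range, from -1.47 in H1792 to 0.80 in H1299, with -0.06 in A549, where its counting interval included 0 while the other 9 genes were at -0.36 or lower. The mean over the 5 lines was 0.08 ± 0.21 (SE; 95% interval -0.40 to 0.57; adjusted p = 0.876). CDC45 (chr22:19467443-19508131, plus strand), the helicase cofactor, was at 18.9 FPKM in the Mock and 10.6 FPKM in the DAC library of A549, 14.3 and 9.82 for PC9, 9.76 and 5.9 for H1792, 30.5 and 26.9 for CL1-0, 9.39 and 12.4 for CL1-5 and 16.5 and 22.4 for H1299. Its difference in A549 was -0.82, the third lowest there, and its mean over the 5 lines was -0.14 ± 0.21 (SE; 95% interval -0.62 to 0.35; adjusted p = 0.784). In the order of mean FPKM over the 12 libraries the genes were MCM7 at 89.6, MCM3 at 46.5, MCM4 at 38.8, MCM6 at 30.4, MCM2 at 29.8, CDT1 at 24.9, MCM5 at 21.9, CDC6 at 17.3, CDC45 at 15.6 and MCM10 at 8.43. MCM7 was above MCM3 in 10 of 12 libraries and CDC45 above MCM10 in 12 of 12. For the neighbours between them, the first gene was the higher one in 4 to 9 of 12 libraries.

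The genes around licensing were described from lists of the pathway, and again none of their members was called after adjustment. Of 10 genes for origin recognition and licensing control, 6 lay below 0 and 4 above over the 5 lines (median -0.04), and 0 had a p under 0.05. ORC1, the ORC subunit that varies with the cell cycle, was at 13.5 FPKM in the Mock and 11.4 FPKM in the DAC library of A549, 25.7 and 17.6 for PC9, 7.34 and 2.49 for H1792, 21.1 and 16.1 for CL1-0, 10.9 and 17 for CL1-5 and 7.05 and 10.9 for H1299. ORC4, a constant subunit of the complex, was the highest of the list, at 0.24 ± 0.14 (SE, adjusted p = 0.496), and GMNN the lowest. MCMBP, which binds free MCM subunits, had differences of -0.29 in A549, -0.31 in PC9, -0.41 in H1792, -0.18 in CL1-0, 0.21 in CL1-5 and 0.16 in H1299, with the same signs as the median of the ring. Of 16 helicase activation and origin firing genes, 6 lay below 0 and 10 above (median 0.03, 0 with a p under 0.05). In H1299 16 of 16 of them were higher and in H1792 16 of 16 were lower, while CL1-0 had 8 in each direction. CLSPN (claspin, which links fork and checkpoint) was highest at 0.25 ± 0.18 (SE, adjusted p = 0.571) and GINS2, a GINS subunit, lowest at -0.18 ± 0.30 (SE, adjusted p = 0.808), with -1.32 in A549 and 0.90 in H1299.

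Of 23 replisome genes, 19 lay below 0 and 4 above over the 5 lines (median -0.11), and 2 of them, LIG1 and POLD2, had a p under 0.05 before adjustment, where 4.4% of all genes did in that direction. LIG1, the ligase that joins Okazaki fragments, was lower in 6 of 6 lines, at 20.2 FPKM in the Mock and 13.6 FPKM in the DAC library of A549, 18.2 and 11.5 for PC9, 6.3 and 4.0 for H1792, 10.6 and 8.53 for CL1-0, 10.2 and 10 for CL1-5 and 6.43 and 4.59 for H1299, with a mean of -0.41 ± 0.13 (SE, adjusted p = 0.298). POLD2, a subunit of DNA polymerase delta, was lower in 6 of 6 lines, with a mean of -0.41 ± 0.17 (SE, adjusted p = 0.389). These 2 genes therefore kept below Mock also in CL1-5 and H1299, where the licensing genes were higher, with a difference of -0.03 in CL1-5 for both. PCNA, the sliding clamp, had the line pattern of the ring, at 363 FPKM in the Mock and 249.99 FPKM in the DAC library of A549, 173 and 117 for PC9, 54.7 and 35.1 for H1792, 184 and 149.6 for CL1-0, 139 and 208 for CL1-5 and 63.3 and 87.6 for H1299. FEN1, the flap nuclease, was the highest of the list at 0.07 ± 0.26 (SE, adjusted p = 0.928). Of 7 genes for nucleotide supply in S phase, 4 lay below 0 and 3 above (median -0.08). All 7 were lower in A549, CL1-0, PC9 and H1792, all 7 were higher in H1299, and 6 of 7 were higher in CL1-5. The subunits of ribonucleotide reductase marked the ends of this list, RRM2 at 0.09 ± 0.23 (SE, adjusted p = 0.888) and RRM1 at -0.25 ± 0.17 (SE, adjusted p = 0.563).

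Among 13 E2F and RB family genes, 6 lay below 0 and 7 above (median 0.05, 0 with a p under 0.05). E2F1, an activator of licensing gene transcription, was at 36.2 FPKM in the Mock and 17.5 FPKM in the DAC library of A549, 19.6 and 20.2 for PC9, 20.1 and 14.4 for H1792, 27.3 and 21.1 for CL1-0, 24 and 30.8 for CL1-5 and 15.5 and 19.6 for H1299, so that it was lower in A549, CL1-0 and H1792, higher in CL1-5 and H1299, and 0.04 above Mock in PC9, where the 10 licensing genes were lower. E2F8, a repressor, was the highest of this list at 0.21 ± 0.17 (SE, adjusted p = 0.603) and TFDP2, an E2F partner, the lowest at -0.27 ± 0.14 (SE, adjusted p = 0.456). Among 10 cyclins and kinases of the G1/S step, 4 lay below 0 and 6 above (median 0.16). CDK4 had a p under 0.05 before adjustment and was lower in 5 of 6 lines, at -0.40 ± 0.16 (SE, adjusted p = 0.372). CCNE1, cyclin E, was highest at 0.32 ± 0.24 (SE, adjusted p = 0.588), with 1.297 in H1299. Among 7 inhibitors of cyclin-dependent kinases, 3 lay below 0 and 4 above (median 0.03). CDKN1A, which encodes the kinase inhibitor p21, was higher in 6 of 6 lines, at 36.5 FPKM in the Mock and 70 FPKM in the DAC library of A549, 4.62 and 9.76 for PC9, 8.91 and 22.9 for H1792, 8.9 and 9.17 for CL1-0, 12 and 18.7 for CL1-5 and 20.4 and 36.9 for H1299. Its mean over the 5 lines was 0.71 ± 0.16 (SE, adjusted p = 0.204), and it was higher also in CL1-5 and H1299. CDKN1C had a p under 0.05 in the other direction, at -0.48 ± 0.19 (SE, adjusted p = 0.386) and a mean level of 0.591 FPKM, and CDKN2C was the lowest of this list at -0.50 ± 0.25 (SE, adjusted p = 0.448). Before adjustment 8.07% of all genes had a p under 0.05 in the higher direction and 4.4% in the lower.

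Among 9 genes that remove licensing factors, 6 lay below 0 and 3 above (median -0.06, 0 with a p under 0.05), from CKS1B at -0.29 ± 0.24 (SE, adjusted p = 0.601) to CUL4B, a scaffold of the ubiquitin ligase that degrades CDT1, at 0.22 ± 0.13 (SE, adjusted p = 0.506). Among 14 mitosis genes, 8 lay below 0 and 6 above (median -0.04, 0 with a p under 0.05), from CCNB2 at -0.26 ± 0.17 (SE, adjusted p = 0.531) to TTK at 0.08 ± 0.17 (SE, adjusted p = 0.86). Their median in H1792 was -1.35, below the -0.85 of the licensing genes, and in CL1-0 it was 0.02, above the -0.32 of the licensing genes. In A549, 13 of the 14 mitosis genes were lower (median -0.38), as the 10 licensing genes were, where 61.8% of the well expressed genes were lower. The 1 mitosis gene that was higher in A549 was MKI67, a marker of cycling cells. It was at 24.99 FPKM in Mock and 29.6 FPKM after DAC, a difference of 0.24. MKI67 was 26.5 and 19.6 FPKM for PC9, 24.5 and 7.33 for H1792, 16.7 and 16.4 for CL1-0, 26.6 and 28.8 for CL1-5, and 15.6 and 21.8 for H1299. The target of the drug, DNMT1, was at 14.2 FPKM in the Mock and 14.9 FPKM in the DAC library of A549, 23.8 and 19.8 for PC9, 17.4 and 11.3 for H1792, 33 and 31.3 for CL1-0, 26.1 and 31.5 for CL1-5 and 26.3 and 35.8 for H1299, with a mean over the 5 lines of 0.09 ± 0.13 (SE, adjusted p = 0.785). DNMT3B, a de novo methyltransferase, was higher in 6 of 6 lines with a mean of 0.98 ± 0.16 (SE, adjusted p = 0.11).

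The 10 genes outside these lists whose differences were most like the median of MCM2-7 over the 6 lines were WDR76, NES, TRAIP, TMEM97, ZWINT, HNRNPL, HASPIN, ADPGK, KIF4A and CTSC, with Pearson's r from 0.997 down to 0.975. The 6 points are single pairs of libraries, and r ignores both the size and the offset of a difference. WDR76 had differences of -0.48 in A549, -0.47 in PC9, -0.62 in H1792, -0.26 in CL1-0, 0.21 in CL1-5 and 0.07 in H1299. NES, nestin, shared the order of lines but was higher after DAC in 6 of 6 lines, from 0.11 in H1792 to 5.04 in CL1-5. TRAIP, a ubiquitin ligase that acts on the MCM helicase, went from -0.73 in H1792 to 0.36 in CL1-5, and the kinetochore gene ZWINT from -0.85 in H1792 to 0.54 in H1299 and 0.54 in CL1-5. Of the 6729 genes that met the limits on level and spread, 150 (2.23%) had an r of at least 0.9, and of the 10 licensing genes 8 had, 6 of the 10 being part of the median itself. The lowest r of the 10 was 0.838. Among the pathway lists, 5 of 7 nucleotide supply genes, 4 of 9 licensing control genes, 6 of 22 replisome genes and 4 of 14 mitosis genes had an r of at least 0.9. So had 1 of 12 helicase activation genes, 1 of 6 E2F and RB family genes, 1 of 8 genes that remove licensing factors, 0 of 8 G1/S cyclins and kinases and 0 of 6 kinase inhibitor genes.

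The promoters of the 10 genes were accessible in all 8 Omni-ATAC-seq libraries. A broad peak lay within 3000 bp of the GRCh37 start site in 80 of 80 gene and library pairs, and in 79 of 80 a peak covered the start site, the exception being CDT1 in the DAC library labelled CL1-5. A promoter peak was found for 84.3% to 89.7% of the 14813 ranked genes and for 94.2% to 96.0% of the 6960 well expressed ones, so presence alone does not set these genes apart. The libraries labelled CL1-5 and PC9 go against their labels. Of 143 genes at 5 FPKM or more in Mock PC9 and under 0.1 FPKM in Mock CL1-5, the Mock list labelled CL1-5 held a promoter peak for 88.1% and the one labelled PC9 for 46.9%. Of 85 genes with the opposite expression they held one for 48.2% and 82.4%. The peak names inside these files carry the other line's name too. Both are therefore given as labelled, and RNA and accessibility are not joined within these lines.

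Peaks were ranked within each library by fold enrichment over background, as percentiles among the ranked genes. MCM3 and MCM10 had the strongest promoter peaks, at the 96.3 to 99.6 and the 87.5 to 99.2 percentile. In Mock A549 the MCM3 peak (chr6:52149303-52149895, GRCh37) was 593 bp wide with a 12.8-fold enrichment, and the MCM10 peak (chr10:13203232-13203801) 570 bp with 12.4-fold. MCM2 ranked from 69.1 to 93.4, CDC6 from 67.5 to 96.1, MCM6 from 54.6 to 83.6, CDC45 from 55.3 to 85.2, MCM5 from 39.4 to 73.2, MCM4 from 46.7 to 65.3 and MCM7 from 41.3 to 49.5. CDT1 was lowest, from 11.2 to 26.8, with an enrichment of 2.211 to 3.495-fold. In Mock A549 and in both libraries labelled CL1-5 its strongest peak lay inside the gene, past the start site. The CDT1 range therefore mixes different peaks. MCM7 had the most mRNA on average but ranked from 41.3 to 49.5, and MCM10 had the least mRNA with a high rank. MCM3, second in mean mRNA, ranked high in both. Whether the promoter rank followed the mRNA over all these genes was not tested. The peaks of MCM4, MCM7 and CDC45 were wider, at 1395 to 1648 bp, 1420 to 1788 bp and 931 to 1420 bp. Each of these 3 genes shares its promoter region with a gene on the other strand, PRKDC 805 bp from MCM4, AP4M1 246 bp from MCM7 and UFD1 727 bp from CDC45, so that these peaks cannot be given to 1 gene alone.

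After DAC no promoter of the 10 passed a test of its rank over the 4 lines, where the exact two-sided sign-flip permutation test cannot give a p under 0.125. MCM2 was lower in 4 of 4 lines, with a percentile of 85.6 in Mock and 80.1 after DAC for A549, 81.1 and 69.1 for H1299, 93.4 and 89.4 under the label CL1-5, and 90.4 and 78.5 under the label PC9. Its mean difference was -8.37 ± 4.19 percentile points (SD, n = 4, exact p = 0.125). MCM6 was lower in 4 of 4, with a mean difference of -12.7 ± 11.1 points (SD, n = 4, exact p = 0.125), with the widest gap under the label PC9, from 83.6 to 57.8. MCM4 was higher in 4 of 4, with a mean difference of 5.01 ± 4.44 points (SD, n = 4, exact p = 0.125). The share of all ranked genes with the same sign in 4 of 4 lines was not computed, so MCM2, MCM6 and MCM4 have no background here. The other 7 genes had differences of both signs, with mean differences from -2.73 points for MCM10 to 4.98 for CDC45. The median over the 10 genes was -2.50 points in A549, -1.14 under the label CL1-5, -1.33 under the label PC9 and 0.57 in H1299, where the medians of all ranked genes were -1.04, -0.34, -0.93 and -0.88. In A549 7 of 10 promoters were lower and in H1299 6 of 10 were higher. The shares of all ranked genes in each direction were not computed, and their medians lay below 0 in both lines, so these counts are not set against a background. The peak shared by CDC45 and UFD1 went from the 58.5 to the 79.4 percentile in A549. Ranked by peak width instead, the median over the 10 genes was 0.68 in A549 and -4.93 in H1299, so that both signs turned. Depth of these libraries is unknown, and the DAC lists held more peaks than the Mock lists in each of the 4 lines (58734 and 78199 in A549, 45354 and 63541 in H1299, 85710 and 97584 labelled CL1-5, and 71204 and 91061 labelled PC9). The part of this difference in the ranks was not tested beyond lists cut to equal length.

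**Figure D5:**
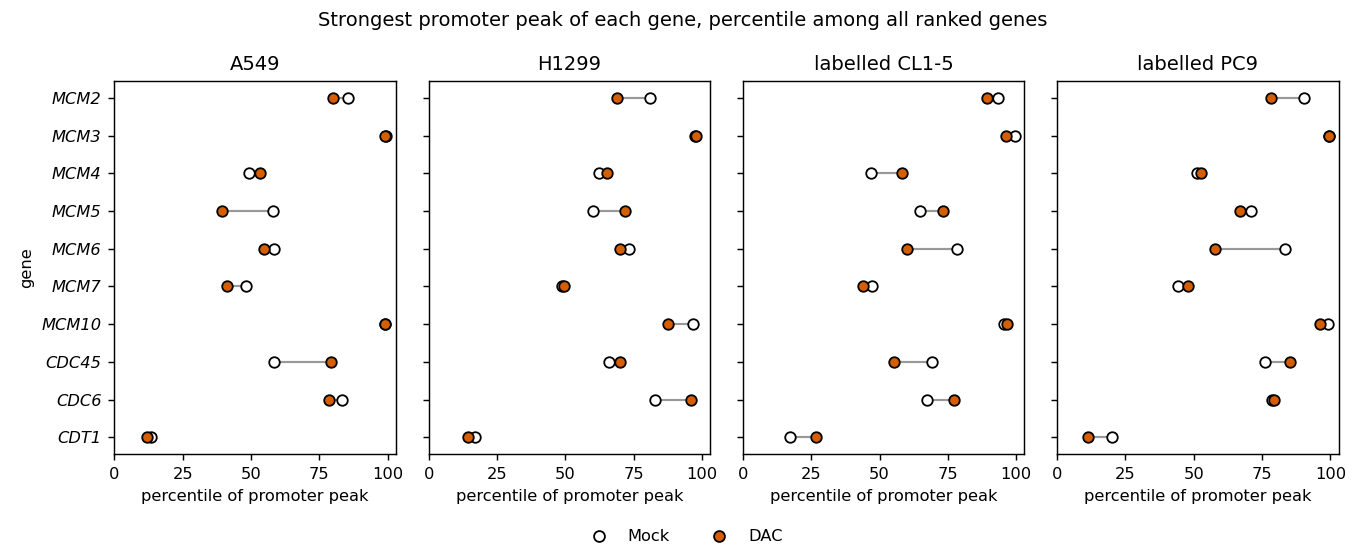
Percentile of the strongest promoter peak of each of the 10 genes among 14813 ranked genes, in the Mock (open) and DAC (filled) Omni-ATAC-seq library of A549, H1299 and the lines labelled CL1-5 and PC9, with 1 library per point. MCM3 and MCM10 lie at the right and CDT1 at the left in all 4 panels. The DAC point lies left of the Mock point for MCM2 and MCM6 in all 4, and right of it for MCM4 in all 4. The share of all ranked genes with 1 direction in all 4 was not computed.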

How the data were processed

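mRNA-seq of 12 libraries (6 lines, Mock and DAC) and Omni-ATAC-seq of 8 (4 lines) were analysed, grouped by the line and treatment of their labels. The mRNA libraries were stranded. By their methods the authors trimmed the reads, used RSEM with bowtie2 to align them to hg19 (the submitters' processing notes name TopHat2 2.1.1), counted them per gene, and deposited FPKM made with DESeq2 1.24.0. The same deposited table holds a mean normalized signal per gene, which was used to recover reads, and the authors' own log2 fold change, its error, a test score and p-values, which were not used. For Omni-ATAC-seq the authors mapped reads with BWA, dropped duplicates, ran MACS2 2.2.5 in broad mode on every library and annotated the peaks with ChIPseeker 1.20.0. The deposited lists give per peak a score, −log10 p- and q-values and a fold ratio over background.

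The 10 genes and the gene lists were chosen with earlier results of these data known. Genes averaging 0.1 FPKM or more over 10 libraries of 5 lines were fitted on log2(FPKM + 0.1) with limma 3.58.1 (R 4.3.3), with an intensity trend and a block for the line, and p-values were adjusted over all 22603 genes by the Benjamini-Hochberg method (threshold 0.05). Mock and DAC libraries of a line deviated together (correlation 0.731 to 0.900, at most 0.115 between lines), so the line is part of the design. The p-values set the mean difference against its spread between lines, with CL1-0 and its subline CL1-5 counted as 2 separate lines. The recovered reads were whole, within 0.02, for 100% of values in each library. Within a line a 1.5-fold difference was called, and counting intervals (95%) came from these reads, halved in H1299. Named genes are the 10, the highest and lowest of each list averaging 1 FPKM or more, 7 set by name and the 10 most similar over 6 lines averaging 5 FPKM or more with an SD of at least 0.2. MCMBP, LIG1, CDKN1C and the MCM2-7 sums were added after their values were seen. Promoter peaks lay within 3000 bp of the GENCODE start in GRCh37, and ranks were compared with an exact sign-flip permutation test. Scripts were tested on simulated data. Python 3.11.15, numpy 2.4.6, pandas 2.3.3, scipy 1.17.1 and matplotlib 3.10.9 were used.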

Additional observations from a re-analysis of the deposited data

Results flagged for a closer look

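CDT1 after DAC stood apart in 1 line. Its level in the H1299 DAC library was 55.6 FPKM, where the other 5 DAC libraries ranged from 11.6 to 25.3 FPKM, and its distance from the nearest was 0.687 of the whole range, past Dixon's limit for 6 samples. It was the only such value among 30 sets of 6 values examined (Mock level, DAC level and difference for each of the 10 genes), and chance alone gives about 1 in 20. In Mock the highest CDT1 levels were those of H1299 (40.5 FPKM) and CL1-0 (39.2 FPKM). The H1299 libraries had more reads than the rest, but most of their low read numbers were even, and they were halved for the counting intervals. The higher number need not mean more depth. The part of depth in this value was not tested.

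The direction of the 10 genes differed between lines, with medians of -0.59 in A549, -0.52 in PC9, -0.85 in H1792 and -0.32 in CL1-0, and medians of 0.41 in CL1-5 and 0.45 in H1299. The difference between lines was not tested, since each line had 1 library per treatment. CL1-0 and its subline CL1-5 were among the lines with opposite signs. The well expressed genes of the same lines had medians of -0.18, -0.06, 0.03, -0.12, 0.06 and 0.05 in that order.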

How the results depend on the processing

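Each single-gene test over the 5 lines stayed on the same side of the threshold in every alternative fitted. The adjusted p of the 10 genes lay between 0.417 and 1.00 over 170 fits, and 1 of these, MCM5 without CL1-5, had a p under 0.05 before adjustment (0.0473). Without the replicate block the number of called genes over all genes was 10 in place of 27, and none was among the 10. The other counts were 31 with a pseudocount of 0.01, 28 with a mean of 1 FPKM or more, 30 at a common sum, 53 with all 6 lines, 61 with all 6 lines at a common sum (chosen after seeing the data), 0 with a pseudocount of 1, 2 with no filter, 17 after quantile normalization, 6 with no trend, 199 with voom on the recovered reads, and 0 to 23 with a line left out. The median of the 10 genes over the 5 lines, -0.14 with 7 below 0, was -0.013 at a common sum (6 below 0), -0.044 after quantile normalization (6), -0.0048 with voom (5) and -0.25 with all 6 lines (10). It was 0.020 without A549 (4 below 0), -0.040 without PC9 (6), -0.28 without CL1-5 (10) and -0.26 without H1299 (10).

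Signs of small means turned. MCM3 was 0.065 at a common sum, 0.027 after quantile normalization and 0.056 with voom, and CDC45 was 0.0043 with voom. With all 6 lines MCM4 was -0.15, MCM10 -0.17 and CDC6 -0.12, and at a common sum as well they were -0.075, -0.10 and -0.041. With 1 line left out, MCM3 ran from -0.28 to 0.094, MCM7 from -0.36 to 0.0080 and CDC45 from -0.28 to 0.032, and each was above 0 without A549, as MCM3 was without PC9. MCM4 ran from -0.096 to 0.17, MCM10 from -0.094 to 0.24 and CDC6 from -0.17 to 0.20, and each was below 0 without CL1-5 and without H1299. The cause was not tested.

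Within lines, the medians at a common sum were -0.24 in A549, -0.35 in PC9, -1.02 in H1792, -0.14 in CL1-0 and 0.30 in CL1-5. After quantile normalization they were -0.28 in A549, -0.40 in PC9, -0.11 in CL1-0, 0.30 in CL1-5 and 0.34 in H1299, and relative to the well expressed genes (chosen after seeing the data) -0.40 in A549 and -0.20 in CL1-0. Each kept its sign. Genes past 1.5-fold were 0 in CL1-0 and 1 in CL1-5 under each of these 3 scalings, and in PC9 1 at a common sum and after quantile normalization. The shares of all genes past 1.5-fold under these scalings were not computed. The mean over 4 lines of the median rank difference of the promoters lay between -2.21 and -0.63 points over all alternatives, but single lines moved. H1299 (0.57) was -4.93 ranked by peak width and -1.42 with the deposited assignment (chosen after seeing the data), and A549 (-2.50) was 0.68 by width and -4.23 with equal peak numbers. Exchanging the libraries labelled CL1-5 and PC9 leaves the mean as it is by construction. The limits are 1 library per line and treatment and, for Omni-ATAC-seq, 4 lines of unknown depth.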
